A study of Mus musculus with 2 samples.

Results

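The mir-199 genes and Mir214 are miRNA genes that lie antisense to dynamin genes and are used as markers of mesenchymal cells. From the 2202 miRNA genes in the tables, 4 were taken by name, namely Mir199a-1, Mir199a-2, Mir199b and Mir214. Small RNA of less than 30 nucleotides from the adrenal gland was sequenced in 2 libraries, replicates 1 and 2 of the only group. The mice were adult 5xFAD/CAST males aged 8 to 10 months. That strain name joins a transgenic Alzheimer's disease model and the wild-derived CAST strain, and the labels do not say whether these animals carried the transgenes. Both libraries cite the same donor record, so the spread between them may be partly technical, and there was no second condition to compare.

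A miRNA gene is transcribed as a long RNA that is cut to a hairpin and then to 2 mature arms, 5p and 3p, of which bases 2 to 8, the seed, do most of the target pairing. Mir199a-2 and Mir214 are made from the noncoding transcript Dnm3os, which runs antisense to Dnm3 and is driven by the mesenchymal factor Twist1. In many organs these miRNAs are abundant in fibroblasts and other stromal cells. In the adrenal gland such cells form the capsule and the stroma between the steroid-producing cells of the cortex and the catecholamine-producing cells of the medulla.

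The mature arms are shown because they decide which reads could be assigned to which gene. The sequences are those of RefSeq on GRCm38.p6, written 5′ to 3′ with the seed in capitals. The arms are:
miR-199a-5p (Mir199a-1 and Mir199a-2): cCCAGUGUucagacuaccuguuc
miR-199a-3p and miR-199b-3p (all mir-199 genes): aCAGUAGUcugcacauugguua
miR-214-5p (Mir214): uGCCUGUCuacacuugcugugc
miR-214-3p (Mir214): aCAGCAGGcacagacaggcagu
miR-761 (Mir761, not a member): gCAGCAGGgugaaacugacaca

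The mir-199 genes share arms with each other and Mir214 shares none. The 3p arm is letter for letter the same in Mir199a-1, Mir199a-2 and Mir199b, and the 5p arm of Mir199a-1 and Mir199a-2 is the same in both. In the hairpin of Mir199b, the stretch most like miR-199a-5p differs at 1 base, C10U, counted from 1 at the 5′ end of miR-199a-5p. That base lies outside the seed, and it is shown in capitals. miR-199b-5p itself was not analysed here.
Mir199b, bases 26 to 48 of the hairpin: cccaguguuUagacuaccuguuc

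Among the 1674 distinct mature arms in the table, the seeds of miR-199a-5p, of miR-199a-3p and of miR-214-5p each occurred in 1. The seed of miR-199a-5p also stands in the Mir199b stretch above, which is not counted among these arms. The seed of miR-214-3p occurred in 2, and the other was miR-761. Mir761 had 0 reads in both replicates, so Mir214 was the only gene with that seed to which reads were assigned. The counts do not tell the 5p from the 3p arm of a hairpin.

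The hairpin of Mir214, the member to which most reads were assigned, is printed with its 5p and 3p arms in capitals. It lies at chr1:162223368-162223477 on the plus strand.
Mir214 hairpin: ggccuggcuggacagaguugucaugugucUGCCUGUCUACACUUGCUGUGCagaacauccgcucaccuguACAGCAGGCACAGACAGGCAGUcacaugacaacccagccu

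The hairpins were compared in windows of 22 bases, the length of most of these arms. In Mir199a-1, 13 of 49 windows (26.5%) also occurred in another hairpin. This was true of 12 of 89 windows (13.5%) in Mir199a-2, of 8 of 89 (8.99%) in Mir199b and of 0 of 89 in Mir214. All shared windows lay at or beside the mature arms, and the only hairpins that shared them were the other mir-199 genes. The windows that begin at the first base of miR-199a-5p or of the 3p arm occurred in more than 1 hairpin. A window that begins 1 or 2 bases before miR-199a-5p told Mir199a-1 from Mir199a-2. The longest run in common was 27 bases between Mir199a-1 and Mir199a-2, 28 between Mir199a-1 and Mir199b and 27 between Mir199a-2 and Mir199b, close to the limit of 30 nucleotides on the RNA sequenced. Between Mir214 and each mir-199 gene it was 7.

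**Figure D1:**
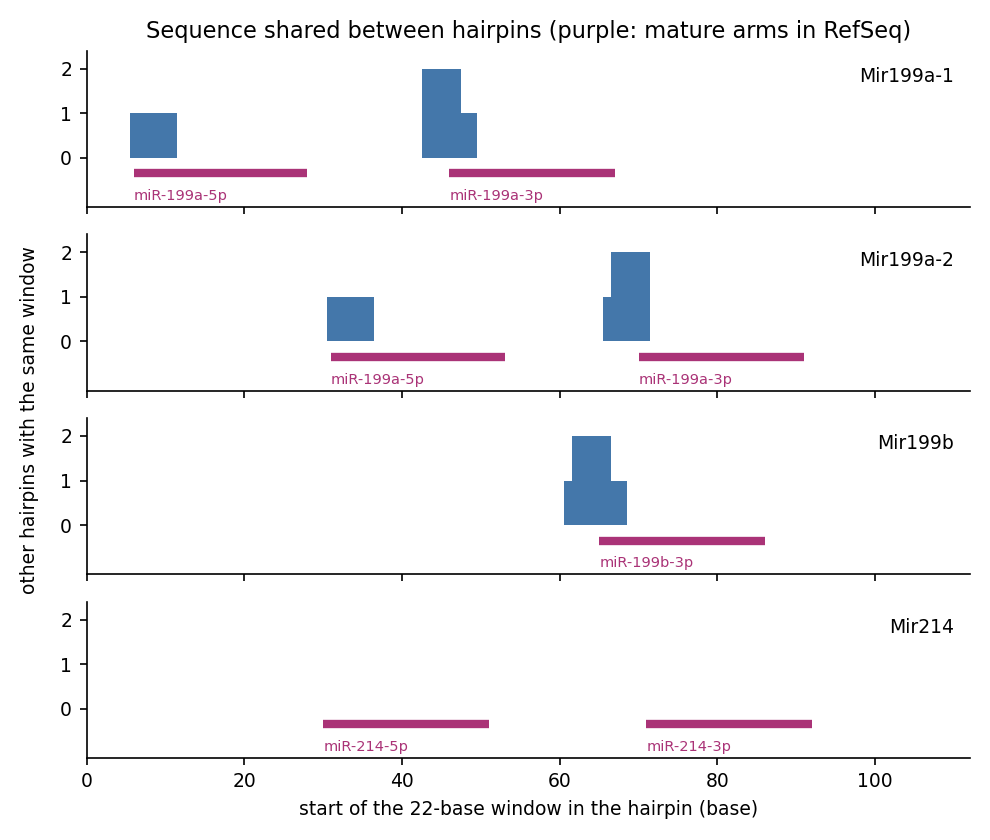
For each hairpin, the number of other hairpins (vertical axis) that hold the same 22-base window is plotted by the window's first base (horizontal axis), with the mature arms as purple bars. Shared windows begin at or just beside the arms of the mir-199 genes, and Mir214 has none.

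Reads that mapped to several places were assigned to no gene, so the counts of the mir-199 genes are lower limits. These multimapping reads made up 30.3% and 32.1% of all reads in replicates 1 and 2 and cannot be traced to genes in these tables. Of the 1058 genes with mature arms in the RefSeq table, 97 (9.17%) share at least 1 arm with another gene, and the mir-199 genes are 3 of them.

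Levels are given as CPM, the reads on the gene's strand per 1000000 such reads over all miRNA genes, which totalled 6783227 (replicate 1) and 3084602 (replicate 2). Intervals are Wilson 95% intervals and cover counting error only.

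Mir214 had the most uniquely assigned reads of the members in both replicates. The counts of the mir-199 genes are lower limits, so this does not rank the mature products. It held 2410 reads in replicate 1, or 355 CPM (341 to 370), and 2563 reads in replicate 2, or 831 CPM (799 to 864). Its mean was 593 ± 336 CPM (SD, n = 2), rank 90 of the 2202 genes. Rank was 106 in replicate 1 and 77 in replicate 2, so Mir214 was a gene of moderate abundance in both libraries.

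Mir199b, the copy in Dnm1, held 147 reads in replicate 1, or 21.7 CPM (18.4 to 25.5), and 15 reads in replicate 2, or 4.86 CPM (2.95 to 8.02). Its mean of 13.3 ± 11.9 CPM gave rank 268. Mir199a-2, which shares Dnm3os with Mir214, held 29 reads in replicate 1, or 4.28 CPM (2.98 to 6.14), and 23 reads in replicate 2, or 7.46 CPM (4.97 to 11.2). Its mean was 5.87 ± 2.25 CPM, rank 303. Mir199a-1, the copy in Dnm2, held 1 read in replicate 1 (0.147 CPM, 0.0260 to 0.835) and 0 reads in replicate 2. For a gene with near-identical copies a count of 0 sets no upper limit on its product, and no fold is given for it.

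Mir199a-2, Mir199b and Mir214 exceeded 2 CPM in both replicates, as did 334 genes in all. Mir214 made up 93.2% and 98.5% of the summed uniquely assigned reads of the members in replicates 1 and 2. The mir-199 counts in this sum are lower limits, so these are not shares of mature products. The sum was 381 and 843 CPM, or 0.0381% and 0.0843% of miRNA reads, and the mir-199 genes together contributed 26.1 and 12.3 CPM of it. Any statement on the summed level is therefore a statement on Mir214.

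**Figure D2:**
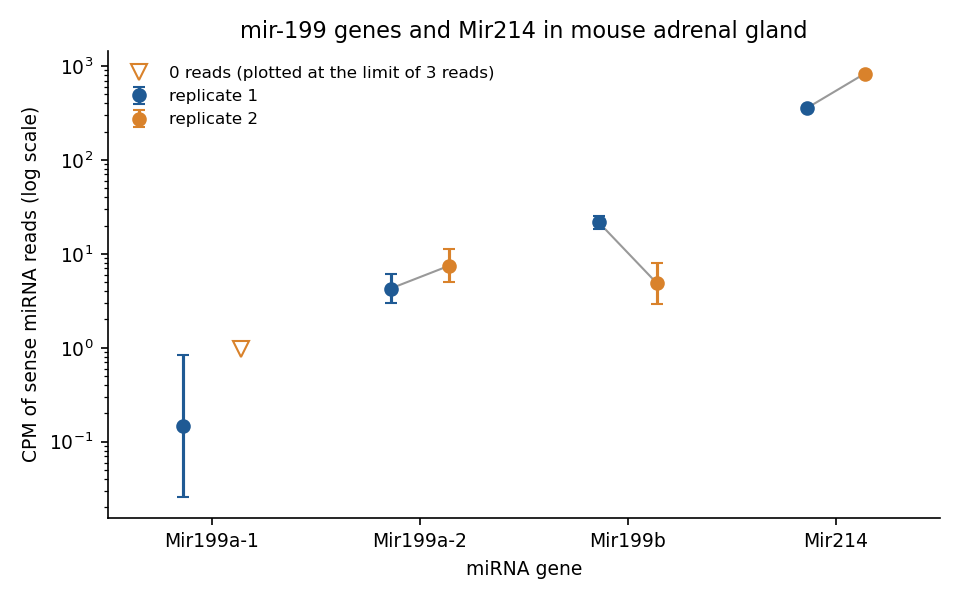
CPM of each member on a log axis, with replicate 1 in blue and replicate 2 in orange, and Wilson 95% intervals as bars. Mir214 lies above the mir-199 genes in both replicates, and the open triangle marks 0 reads of Mir199a-1 in replicate 2, placed at the 0.973 CPM that 3 reads would give.

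Of the 6 pairs of members, 5 were ordered beyond the replicate spread, by the rule that both libraries order a pair alike and that both gaps exceed the replicate difference of either gene, on the log2(CPM + 1) scale. All 6 pairs hold a mir-199 gene, whose count is a lower limit. The order is therefore one of uniquely assigned reads and not of mature products. The exception to it was Mir199b and Mir199a-2. Mir199b was 5.07-fold above Mir199a-2 in replicate 1 (exact 95% interval 3.39 to 7.83) and at 0.652 of it in replicate 2 (0.316 to 1.30). Applied to CPM without the log, a scale considered after the values had been seen, the rule ordered 1 of the 6 pairs, Mir199a-1 below Mir199a-2. The replicate difference of Mir214, 476 CPM, was then larger than its whole level in replicate 1.

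The place of Mir214 among the genes with a mean of at least 10 CPM depended on the scale. On log2(CPM + 1), 47 of the 279 other genes were above Mir214 beyond the replicate spread, 127 were below it and 105 could not be ordered against it. On CPM without the log, 52 were above it, 0 below it and 227 could not be ordered. Its nearest neighbours by mean level were Mir299a (640 ± 168 CPM), Mir145a (631 ± 15.1) and Mir425 (607 ± 5.09) above, and Mir34c (592 ± 422), Mir221 (574 ± 205) and Mir369 (570 ± 75.0) below. None of these 6 differed from Mir214 beyond the spread.

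**Figure D3:**
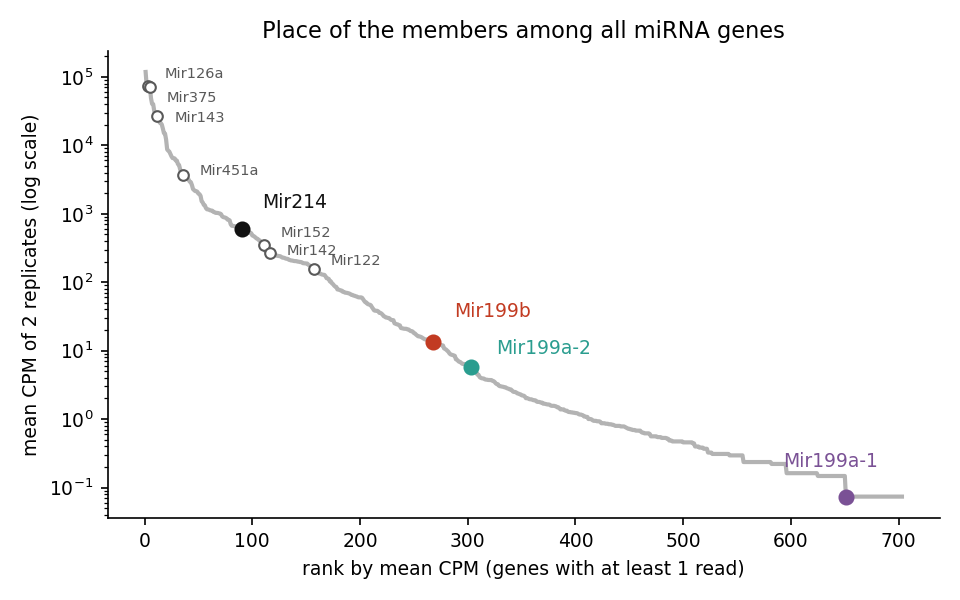
Mean CPM of 2 replicates (log axis) of each gene with a read, by rank, with the members in colour and some cell type markers as open circles. Mir214 is at rank 90, Mir199b at 268, Mir199a-2 at 303 and Mir199a-1 at 651.

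In the genome, 2 members lie together and 2 lie apart. Positions are those of GENCODE M21 on GRCm38 (mm10). Mir199a-2 (ENSMUSG00000070126.1) lies on chromosome 1 at 162217814 to 162217923 and Mir214 (ENSMUSG00000065516.1) at 162223368 to 162223477, both on the plus strand. Both lie whole in a long exon that runs along Dnm3os (162217623 to 162225550). In other transcripts of Dnm3os, shorter exons cover only part of each hairpin. Of the Dnm3os transcripts, 5 span Mir199a-2 and 3 span Mir214. On the minus strand both hairpins lie in an intron of Dnm3, a dynamin gene. Mir199b (ENSMUSG00000092807.1) lies on the plus strand of chromosome 2 at 32318460 to 32318569, in an intron of Dnm1 on the minus strand. Mir199a-1 (ENSMUSG00000065547.1) is a minus-strand gene of chromosome 9 (21496495 to 21496564) in an intron of Dnm2 on the plus strand. Dynamins are GTPases that pinch vesicles from membranes. For Mir199b and Mir199a-1 the annotation holds no gene on their own strand.

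The 2 hairpins of Dnm3os are 5444 bases apart and stood at very unequal counts. Mir214 held 83.1 reads for each read of Mir199a-2 in replicate 1 (exact 95% interval 57.7 to 124) and 111 in replicate 2 (74.1 to 176). The intervals of the replicates overlap. Because both mature arms of Mir199a-2 also match another mir-199 gene, the ratio is one of uniquely assigned reads and not of mature products. Against Mir199b the ratio was 16.4 (13.9 to 19.5) in replicate 1 and 171 (103 to 306) in replicate 2, and these intervals do not overlap.

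**Figure D4:**
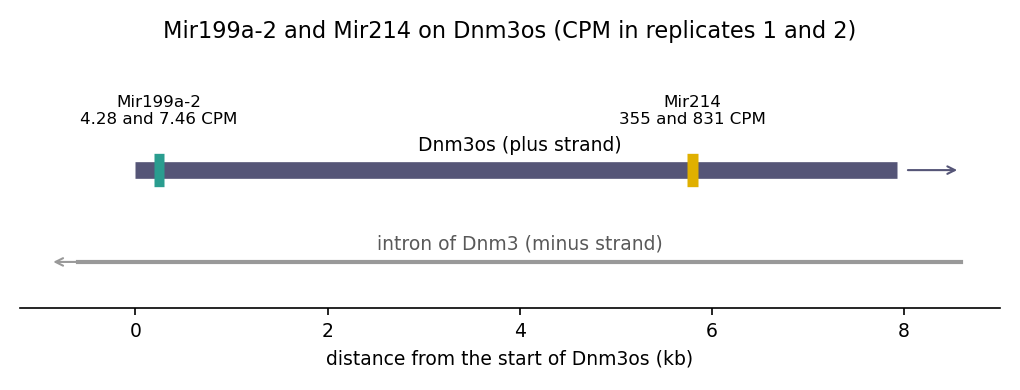
Map of Dnm3os with distance from its start in kb, to scale, showing the hairpins of Mir199a-2 and Mir214 with their CPM in replicates 1 and 2, and the intron of Dnm3 on the other strand. Mir199a-2 begins 191 bases and Mir214 5745 bases from the start.

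The members did not move together between the replicates. Mir214 was 2.34-fold higher in replicate 2 (exact 95% interval 2.21 to 2.47, counting error only), a log2(CPM + 1) difference of 1.22. Mir199b was lower in replicate 2, with 4.46 times as many CPM in replicate 1 (2.62 to 8.17) and a log2 difference of −1.95. Mir199a-2 stood at 1.74-fold in replicate 2, with an interval of 0.964 to 3.12 that includes 1, and a log2 difference of 0.68. These values compare 1 library with 1 library, so no test across animals was possible, and the labels give no treatment, age or date in which the replicates differ.

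A difference of this size was seen in a minority of genes. Of the 280 genes with a mean of at least 10 CPM, 30 (10.7%) differed at least 2-fold on the log2(CPM + 1) scale, 17 (6.07%) higher and 13 (4.64%) lower in replicate 2. Of the members, Mir214 and Mir199b passed this minimum, and both were among the 30, 1 in each direction. Mir199b passed it only through its 21.7 CPM in replicate 1, so its place in this count was partly set by the minimum itself and nothing is read from it. Mir214 had the seventh highest log2 difference of the 280 genes. The median of the 280 genes was 0.01, and 90% of them lay between −0.93 and 1.06. Among the 54 genes of 300 to 1200 CPM, the range that holds Mir214, 6 were at least 2-fold higher and 4 lower. Scaling by TMM moved the median of the 280 genes to −0.09 and scaling by DESeq2 size factors to −0.12, with 12 higher and 17 lower and with 8 higher and 17 lower. Mir214 stayed above 2-fold, at 1.12 and 1.09. Mir199b was at −2.04 and −2.07, from which nothing is read either, since it passed the minimum only through replicate 1.

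**Figure D5:**
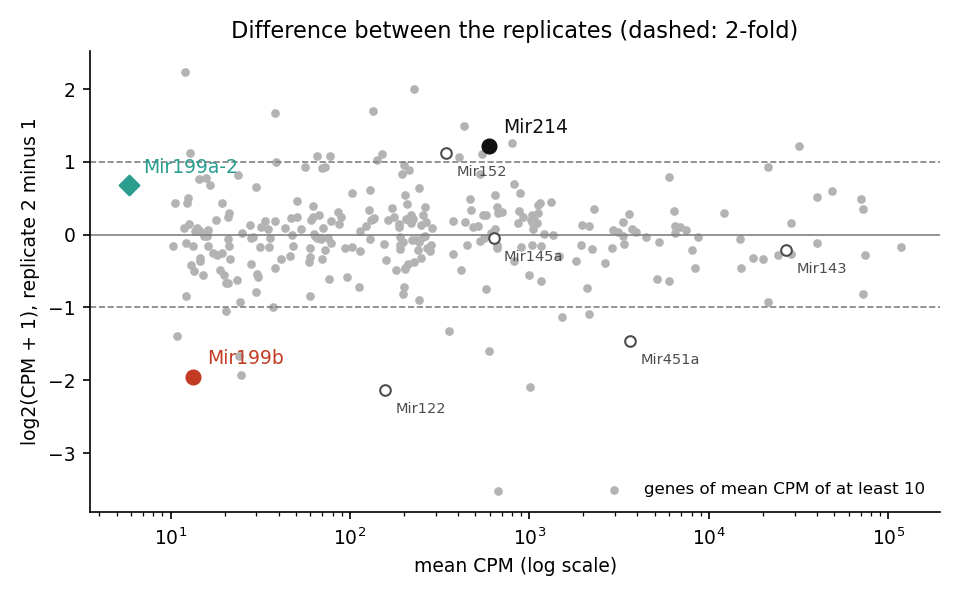
Difference between the replicates in log2(CPM + 1) against mean CPM (log axis) for the 280 genes of at least 10 CPM, with 3 members in colour (Mir199a-2, the diamond, lies under that minimum) and selected markers as open circles. Mir214 lies above the upper dashed line of 2-fold, Mir199b below the lower one and Mir199a-2 between them.

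The genes of at least 100 CPM nearest to Mir214 in replicate difference were Mir26b (1.22), Mir195a (1.26) and Mir152 (1.12). Likeness over 2 libraries says only that these genes were higher by a like amount in replicate 2. Mir152, the other gene on the mesenchymal list, was at 217 and 471 CPM. The list did not move as 1. Of its 3 genes with a mean of at least 10 CPM, Mir214 and Mir152 were at least 2-fold higher in replicate 2. Mir199b, which passed that minimum only through replicate 1, was at least 2-fold lower (−1.95). Over all 280 genes of that minimum, 17 (6.07%) were higher and 13 (4.64%) lower, and nothing is read from 3 genes. The detected markers of smooth muscle and pericytes, the contractile cells of vessel walls, did not show a 2-fold difference. Mir143 was at 28851 and 25009 CPM (log2 difference −0.21) and Mir145a at 642 and 621 CPM (−0.05), both within 2-fold. Mir145b had a mean of 0.236 CPM.

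Markers of other cell types were read beside these values. In the tissue as a whole, fewer cells of a type and less of an RNA in each cell cannot be told apart. Endothelial Mir126a stood at 92610 and 52519 CPM (log2 difference −0.82), with Mir126b at a mean of 0.295 CPM, and medullary Mir375 at 58717 and 82443 CPM (0.49). All 4 genes of the medullary list, with Mir7-1, Mir7-2 and Mir7b, were within 2-fold. So were all 4 of the leukocyte list (Mir142, Mir223, Mir150 and Mir155). Of these, Mir223 came nearest to 2-fold, at 38.3 and 73.6 CPM (0.92). Over all 280 genes with a mean of at least 10 CPM, 30 (10.7%) differed at least 2-fold. The summed leukocyte list was at 610 and 693 CPM, led by Mir142 at 266 ± 23.3 CPM. The epithelial list was at 432 and 577 CPM, led by Mir203 at 386 and 542 CPM, and Mir205 was at a mean of 0.236 CPM. Mir203 carried that difference, while Mir200c (23.7 and 15.9 CPM) and Mir429 (9.58 and 3.24 CPM) were lower in replicate 2. The erythroid list was at 5556 and 2149 CPM, and of its 3 genes Mir451a was at least 2-fold lower in replicate 2 (−1.46), while Mir144 (−0.03) and Mir486 (−0.15) were not. The liver marker Mir122 was lower, at 257 and 57.7 CPM (−2.14). Mir451a and Mir122 thus differed opposite to Mir214 and the same way as Mir199b, and their part in these differences was not tested.

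A list of miRNAs with known roles in fibrosis and extracellular matrix held far more assigned reads than the members. All 18 listed genes exceeded 2 CPM in both replicates, as did 334 of all 2202 genes. Together the 18 held 35861 and 29534 CPM. The highest were Mir29a at 8682 ± 129 CPM, which represses collagen genes, Mir22 at 8347 ± 1881 CPM, Mir378a at 3342 ± 282 CPM and Mir21a at 3128 ± 53.3 CPM, a miRNA raised in many fibrotic tissues. Mir214 was lower than each of these 4 in both replicates. Of the 17 with a mean of at least 10 CPM, 0 were at least 2-fold higher in replicate 2 and 3 were lower. The 3 lower were Mir31 (−3.53), Mir29c (−1.12) and Mir34a (−1.09). Over all 280 genes of that minimum, 17 (6.07%) were higher and 13 (4.64%) lower, and nothing is read from so few listed genes. The median log2 difference of the 17 listed genes was −0.13, beside 0.01 for all 280 genes.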

How the data were processed

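MicroRNA sequencing was deposited as 1 table per library. The authors deposited raw read counts per miRNA gene in 3 columns without a header, for both strands, for the gene's strand and for the other strand. Per the text deposited beside the tables, the assembly was mm10 and the annotation GENCODE M21. The aligner is not given in the sources used here, nor are its settings. The sense column was recognised by its layout and holds 88.6% and 91.8% of stranded assignments. The rest came almost wholly from genes with a miRNA gene on the other strand. Over the 2138 genes without one, 95 and 36 reads were on the other strand. Unmapped, multimapping, unassigned and ambiguous reads were left out of the totals and the first 2 made up 14.7% and 30.3% of replicate 1 and 16.5% and 32.1% of replicate 2. Variants of the CAST strain inside a mature sequence could lower a count.

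All 2202 identifiers matched GENCODE M21. CPM, means, SD, ratios and intervals (95%) were computed in Python 3.11.15 with scipy 1.17.1. TMM factors came from edgeR 4.0.16 and size factors from DESeq2 1.42.0. Replicate differences used a pseudocount of 1 CPM and a minimum mean of 10 CPM, and a gene was called at 2-fold with no test. A count of 0 allows 3 reads, or 0.442 and 0.973 CPM. The replicate differences, the 2-fold call and the exact ratio intervals were tested on simulated counts that held counting error only. The Wilson intervals, the TMM and DESeq2 factors and the window search were not tested so. Hairpin windows were searched in the RefSeq hairpins and in 141767 GENCODE transcripts, in which only Dnm3os, which contains 2 of the hairpins, held them besides the members themselves. A genome sequence was not used here. The genes named are the members, genes that share a seed, neighbours of Mir214 by level and replicate difference, the detected mesenchymal and smooth muscle genes, the highest gene of each other list and the 4 highest fibrosis genes. Other list genes were named after their values were seen. The members and lists were chosen with earlier results of these data known.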

Additional observations from a re-analysis of the deposited data

Results flagged for a closer look

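Mir214 had reads on the strand opposite to the gene, the strand of Dnm3, which the levels above do not use. There were 5 such reads in replicate 1, more than the 3 that a count of 0 allows, and 1 in replicate 2. Per 1000000 reads of both strands of Mir214 this was 2070 (Wilson 95% interval 885 to 4838) in replicate 1 and 390 (68.9 to 2206) in replicate 2. Over all 2138 genes with no miRNA gene on the other strand it was 16.1 and 12.8 per 1000000, from 95 and 36 reads. That pooled rate is weighted by abundant genes, such as Mirlet7g with 847853 sense and 0 opposite reads in replicate 1. Of the 2138 genes, 32 and 18 had any opposite read. Mir203 and Mir708, with 2616 and 2142 sense reads in replicate 1 beside 2410 of Mir214, each had 12 opposite reads there. Mir214 ranked 6 among the 2138 genes by opposite-strand reads in replicate 1 and 9 in replicate 2, there from 1 read. The mir-199 genes had 0 in both replicates. Where these reads came from was not tested.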

How the results depend on the processing

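Over 13 results and 70 alternatives, 58 values moved by less than a set limit, 12 moved by more, and no 2-fold difference changed direction. The limit was the replicate spread for levels and the ratio of Mir214 to Mir199a-2, and the counting interval for log2 differences. For counts of genes or pairs it was a fixed fold of the main count. With 2 replicates, leaving 1 out cannot move a level or that ratio beyond the replicate spread. The interval of Mir199a-1, from 1 read and 0 reads, has no lower limit, so its log2 difference could not pass it either. The 58 include these values, so their number is no measure of stability. Scaled to all reads, every member was lower, and Mir199a-2, at 2.87 CPM, passed its limit. Mir199a-1 was then at 0.0379, Mir199b at 6.72, Mir214 at 289 and the sum at 299 CPM. These stayed within their limits because their replicate spread was wide. Without the 10 most abundant genes in the total, Mir199a-2 was at 14.7, Mir199b at 32.3 and Mir214 at 1488 CPM. The log2 difference of Mir214 was 1.12 under TMM, 1.09 under DESeq2 size factors and 1.11 scaled to all reads. Without Mir214 the summed members were at 19.2 CPM. The sum was not computed without the 10 most abundant genes, a setting under which Mir214, its main part, passed its limit. The number of genes at least 2-fold different, 30, was 58 with no filter on low counts and 19 among genes of at least 100 CPM, since other genes were then compared. On CPM in place of log2, an alternative chosen after seeing the data, 1 pair of members and not 5 was ordered, and 52 genes and not 174 were ordered against Mir214. Leaving out a replicate gave 355 to 831 CPM for Mir214, 4.86 to 21.7 for Mir199b, 4.28 to 7.46 for Mir199a-2, 0 to 0.147 for Mir199a-1, 381 to 843 for their sum and 83.1 to 111 for the ratio of Mir214 to Mir199a-2. No paired analysis was possible because there was 1 group. With 15 reads of Mir199b and 23 of Mir199a-2 in replicate 2, counting error limits their order, and for the mir-199 genes unassigned reads limit it further.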
